A study of Mus musculus with 217 samples.

Results

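The 9 tight junction genes Cldn5, Cldn12, Ocln, Marveld2, Lsr, Tjp1, Cgn, F11r and Jam2 were chosen by name, and all 9 were found among the 52550 genes of the deposited counts. They were followed in RNA bound to HA-tagged ribosomes of endothelial cells (ECs) in brain, lung and heart of adult RiboTagEC mice, before and after the bacterial endotoxin lipopolysaccharide (LPS). All groups shared the C57BL/6J strain, the alleles Cdh5CreERT2/+; Rpl22HA/+, and 5 mg of tamoxifen by gavage, given 4 times at 4 to 6 weeks of age. Mice of the 0 hr groups, labelled as controls, received PBS by the study's methods, and the others were injected intraperitoneally with 10 mg/kg LPS and studied at 6, 24, 48, 72 or 168 hr. Cre is driven by Cdh5, the gene of VE-cadherin, so that the tag is placed in ECs of blood and lymphatic vessels alike, and the pulldown enriches their RNA from whole tissue without isolating the cells.

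Tight junctions close the cleft between neighbouring cells and limit what passes between them. Their strands are built from claudins, the contacts where 3 cells meet are held by Marveld2 (tricellulin) and Lsr (angulin-1), and occludin (Ocln) lies along the strands. The scaffold proteins ZO-1 (Tjp1) and cingulin (Cgn) tie the strands to actin, while the immunoglobulin family adhesion molecules JAM-A (F11r) and JAM-B (Jam2) sit beside them. In brain ECs these proteins close the blood-brain barrier, and claudin-5 is its most abundant claudin.

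Summing the 217 runs by library gave 98 libraries, of which 80 entered the comparisons (28 of brain, 24 of lung and 28 of heart). The other 18 libraries, 6 per tissue, had 1.73% to 2.75% of their reads on genes and were left out. At 0, 6, 24, 48, 72 and 168 hr there were 5, 5, 4, 6, 4 and 4 libraries of brain, the same numbers of heart, and 4, 4, 2, 6, 4 and 4 of lung. Counts on genes ran from 284457 to 43417945 per library. Brain and heart libraries were the deeper ones, with medians of 23645892 and 24082214 counts, against 11376798 for lung. No label gives a batch. File names of the counts follow 4 patterns, called library series 1 to 4 here, and series 3 was the set left out. Series 4 had no library at 0 or 6 hr. It gave 2 libraries per tissue at 24, 48 and 168 hr and 1 at 72 hr, but 1 of lung at 24 hr. Single libraries of these times set against the 0 hr range therefore mix time with series. Levels are given as CPM, the counts of a gene per 1000000 counts on genes, after TMM scaling.

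The EC label was compared with marker lists. The 20 pan-endothelial genes, among them Cdh5 and Pecam1, were all detected in every tissue at 0 hr, but their summed level was 1983 to 4475 CPM in brain libraries, 12830 to 18930 in lung and 14330 to 17010 in heart. The 12 brain endothelial markers summed to 3968 to 7970 CPM in brain and to at most 408 CPM in lung and heart. Markers of other cells were present too. At 0 hr, 10 neuron genes summed to 1668 to 7328 CPM in brain, 15 lung epithelial genes to 6796 to 14190 CPM in lung, and 10 cardiomyocyte genes to 3807 to 7155 CPM in heart, and Sftpb of the lung list was nearly undetected there, at a mean of 0.016 CPM. In heart, replicate 2 at 0 hr held 59.6 CPM of the 15 lung epithelial genes, against 1.23 to 2.29 CPM in the other 4 libraries. Epithelial cells carry claudins, occludin, tricellulin and Lsr as well, and the part of these cells in the levels below was not tested. In such bulk samples, fewer ECs and less RNA per EC cannot be told apart.

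Several libraries stood apart from their group. The 6 hr libraries of library series 1 (brain replicate 6, heart replicate 5 and lung replicate 4) stood far below the other 6 hr libraries in acute response genes. Saa3, an acute phase gene, was at 0.0774 to 1.62 CPM in brain at 0 hr, at 1327 to 1522 CPM in brain replicates 1 to 4 at 6 hr, and at 1.08 CPM in replicate 6. In heart it was at 0.162 to 0.371 CPM at 0 hr, at 764 to 1169 CPM in replicates 1 to 4 at 6 hr, and at 0.956 CPM in replicate 5. Icam1, the leukocyte adhesion molecule, gave the same picture, with 89.8 to 129 CPM in heart at 0 hr, 1803 to 3548 CPM in replicates 1 to 4 and 123 CPM in replicate 5. Lcn2, another acute phase gene, went the other way in part, since it was above every 0 hr library in brain replicate 6 and heart replicate 5. It was at 289 CPM in brain replicate 6 against 5.41 to 37.1 CPM at 0 hr, and at 46.7 CPM in heart replicate 5 against 7.51 to 19.7 CPM, but at 4841 to 8540 and 3062 to 6791 CPM in replicates 1 to 4. In lung replicate 4 Lcn2 was at 144 CPM, against 7.86 to 73.9 CPM at 0 hr. That value came from 5 counts, raised 8.22 times by TMM scaling, and does not show a rise. These genes were chosen after their values were seen. Lung replicate 4 at 6 hr, with 0 to 5 counts for each such gene, is also the shallowest library used, with 284457 counts, and replicate 3 was the deep one of the 6 hr lung libraries. Results at 6 hr that rest on these libraries are given with and without them.

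At 0 hr the genes followed different orders over the tissues (see the plot of 0 hr levels). By mean CPM on the TMM scale, Cldn5, F11r and Cgn were highest in lung ECs, Ocln, Lsr, Cldn12 and Marveld2 in brain ECs, and Jam2 and Tjp1 in heart ECs. Brain and lung did not differ past the threshold for Cgn, nor brain and heart for Marveld2, nor any pair for Tjp1. Scaling to endothelial genes changed the sign of a difference with brain for Cldn5, Cgn, Tjp1 and Jam2, as given with the values. None of these differences passed the threshold under both scalings. By edgeR's quasi-likelihood test, which took account of library series, 7 of the 9 genes differed between brain and lung at an adjusted p under 0.05, where 64.3% of all genes tested did. Between brain and heart 7 of 9 differed, against 54.8% of all genes, and between lung and heart 6 of 9, against 61.1%. For a list of 9 genes these shares lie near those of all genes. The median log2 difference of the 9 genes was 0.76 for brain against lung (all genes 0.42), 1.14 for brain against heart (all genes 0.09) and 0.88 for lung against heart (all genes −0.09).

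**Figure D1:**
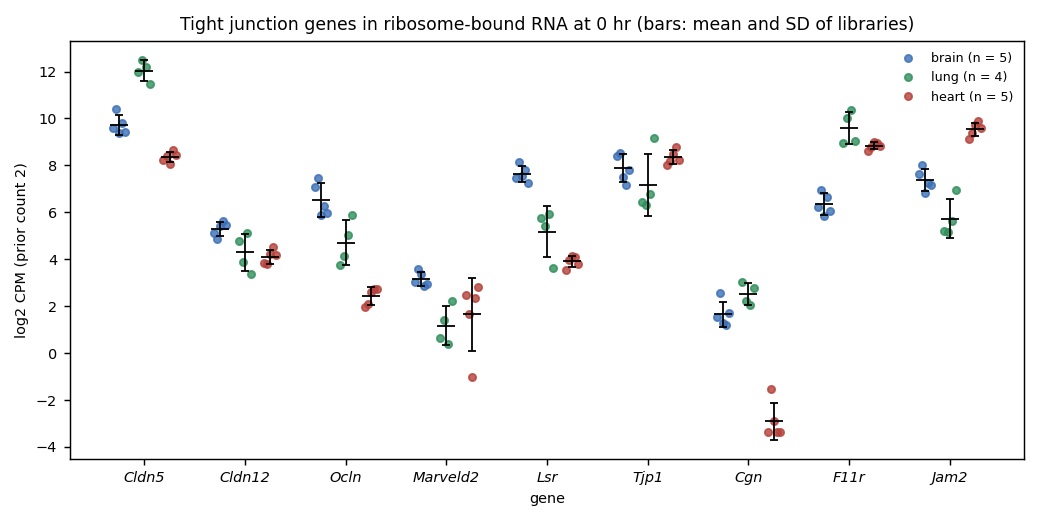
Level at 0 hr of the 9 tight junction genes in log2 CPM (vertical axis, prior count of 2) for brain, lung and heart libraries. Each point is a library, with the mean and SD of each group as bars. Ocln steps down from brain to lung to heart, Jam2 is highest in heart, and Tjp1 overlaps between all 3 tissues.

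Cldn5 (ENSMUSG00000041378, chr16:18776847-18778262 of mm10, plus strand), the main claudin of ECs, was at 4032, 5814, 4694 and 2797 CPM in the lung libraries. It was at 766, 1352, 676, 888 and 694 CPM in brain and at 299, 337, 269, 405 and 346 CPM in heart. The 3 groups did not overlap. Its log2 difference was −2.38 for brain against lung (SE 0.32, edgeR adjusted p = 1.49e-05), 1.35 for brain against heart (SE 0.30, edgeR adjusted p = 0.00136) and 3.74 for lung against heart (SE 0.34, edgeR adjusted p = 7.29e-07). The brain libraries held less pan-endothelial RNA than the lung libraries, as given above. The highest genes of that list in lung were Egfl7, at a mean of 4690 CPM against 168 CPM in brain, and Rasip1, at 2822 against 89.8 CPM. Cdh5 differed less, at 850 against 227 CPM, and Sox17 was lower in lung, at 47.4 against 83.2 CPM. The summed level thus leans on a few genes. With each library scaled to the 20 pan-endothelial genes in place of TMM, the brain against lung difference of Cldn5 was 0.15 (edgeR adjusted p = 0.659), while brain against heart was 3.78 (edgeR adjusted p = 1.15e-08).

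That scaling moved the median log2 difference of all genes from 0.42 to 3.05 for brain against lung, from 0.09 to 2.63 for brain against heart and from −0.09 to −0.18 for lung against heart. Differences that include brain therefore turn on what the libraries are scaled to, as the plot of both scalings shows. Scaled in this way, Cgn was higher in brain than in lung by 1.75 (edgeR adjusted p = 0.00967), and Tjp1 was higher in brain than in heart by 1.94 (edgeR adjusted p = 0.000278) and than in lung by 3.00 (edgeR adjusted p = 1.58e-05). For F11r and Jam2 the differences between brain and heart became −0.04 (edgeR adjusted p = 0.885) and 0.24 (edgeR adjusted p = 0.445). Each of the 9 lung against heart differences kept its direction.

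**Figure D2:**
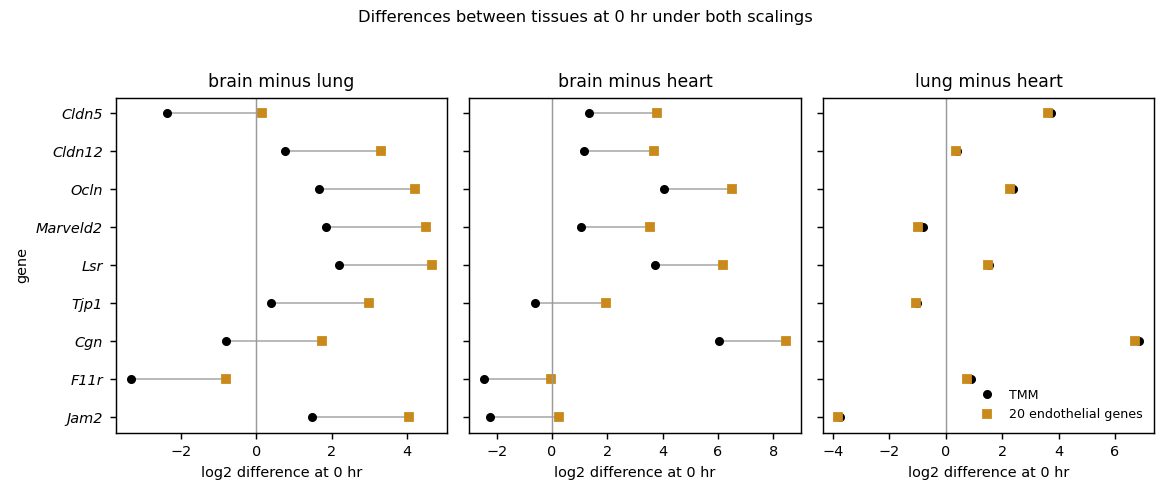
Log2 difference at 0 hr (horizontal axis) between each pair of tissues for the 9 genes (vertical axis), with libraries scaled by TMM (black circles) or to 20 pan-endothelial genes (orange squares), joined by a line. In both panels with brain the squares lie well to the right of the circles, and Cldn5 for brain against lung moves from −2.38 to 0.15, while in the lung against heart panel the symbols nearly coincide.

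Cldn12 (ENSMUSG00000046798, chr5:5489537-5514958, minus strand), a claudin outside the classic barrier-sealing group, was the less abundant of the 2 claudins. Its level was 35.0, 29.0, 42.9, 49.5 and 43.9 CPM in brain, 27.2, 14.7, 34.7 and 10.3 CPM in lung, and 14.3, 13.7, 18.5, 22.6 and 17.9 CPM in heart. Brain lay above heart in every library (log2 difference 1.14, SE 0.27, edgeR adjusted p = 0.00229). The brain and lung libraries overlapped, with a log2 difference of 0.76 (SE 0.29, edgeR adjusted p = 0.0341) that stayed past the threshold in 7 of the 14 fits that left out 1 library. Without lung replicate 4 it was 0.56 (edgeR adjusted p = 0.0527). Lung and heart did not differ beyond their spread (log2 difference 0.39, 95% interval −0.18 to 0.95, edgeR adjusted p = 0.261).

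Ocln (ENSMUSG00000021638, chr13:100496507-100552718, minus strand), occludin, fell in level from brain to lung to heart. It was at 135, 179, 58.5, 76.6 and 62.2 CPM in brain, at 13.3, 17.5, 32.5 and 59.4 CPM in lung and at 3.77, 4.17, 5.92, 6.62 and 6.54 CPM in heart. Lung replicate 4 lay just above the lowest brain library, and heart lay below all others. The log2 difference was 1.66 for brain against lung (SE 0.42, edgeR adjusted p = 0.00287), 4.04 for brain against heart (SE 0.44, edgeR adjusted p = 1.36e-06) and 2.38 for lung against heart (SE 0.42, edgeR adjusted p = 0.00023). Within library series 1 and 2 the mean log2 CPM of brain minus lung was 2.46 and 1.45, and that of brain minus heart 5.26 and 3.34.

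Lsr (ENSMUSG00000001247, chr7:30957770-30973464, minus strand), which recruits tricellulin to the contacts of 3 cells, shares 971 exon bases with genes on the opposite strand, and strand use in counting is not given in the sources used here. Its level was 174.5, 286, 188, 221.5 and 152.5 CPM in brain, 54.2, 42.8, 60.9 and 12.1 CPM in lung and 11.5, 15.6, 17.7, 16.9 and 14.0 CPM in heart. Every brain library was above every other library. The log2 difference was 2.19 for brain against lung (SE 0.39, edgeR adjusted p = 0.000162), 3.72 for brain against heart (SE 0.38, edgeR adjusted p = 7.18e-07) and 1.52 for lung against heart (SE 0.36, edgeR adjusted p = 0.00221).

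Marveld2 (ENSMUSG00000021636, chr13:100595957-100616971, minus strand), tricellulin, was low everywhere. It was at 7.26 to 11.9 CPM in brain, at 1.22 to 4.53 CPM in lung and at 0.395 to 6.95 CPM in heart. The lowest heart library, replicate 3, had 11 counts. Brain exceeded lung by 1.85 on the log2 scale (SE 0.60, edgeR adjusted p = 0.0142), a call lost without lung replicate 3. Brain lay above heart in every library, but the difference of 1.04 missed the threshold (SE 0.53, edgeR adjusted p = 0.111), as did that of lung against heart, −0.81 (SE 0.59, edgeR adjusted p = 0.245).

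Tjp1 (ENSMUSG00000030516, chr7:65296165-65527781, minus strand), the ZO-1 scaffold on which claudins and JAMs dock, was at 338, 373, 183, 145 and 223 CPM in brain and at 261, 292, 364, 439 and 301 CPM in heart. In lung it was at 86.4, 79.9 and 111 CPM in replicates 1 to 3 and at 568 CPM in replicate 4. That lung library held the highest Tjp1 level of all 14 libraries, and the lowest Lsr level in lung. With it, no difference passed, at 0.39 for brain against lung (SE 0.46, edgeR adjusted p = 0.474), −0.61 for brain against heart (SE 0.44, edgeR adjusted p = 0.255) and −0.998 for lung against heart (SE 0.49, edgeR adjusted p = 0.0902). Without it, Tjp1 was higher in brain than in lung by 1.31 (edgeR adjusted p = 0.00168), and lung against heart was −1.81 (edgeR adjusted p = 0.000135). Brain against heart had opposite signs within library series 1 (0.363) and 2 (−1.005).

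Cgn (ENSMUSG00000068876, chr3:94760069-94786492, minus strand), cingulin, was the least abundant of the 9 genes in brain and heart. Its level was 2.78, 5.72, 2.37, 2.21 and 3.14 CPM in brain and 8.11, 4.55, 4.05 and 6.80 CPM in lung. Heart libraries held 0, 3, 1, 0 and 0 counts, which is at or under the 3 counts taken as the floor of a library. No fold is given against heart, and the library with 3 counts was replicate 2, which held more lung epithelial RNA than the others. Brain and lung overlapped, and their log2 difference of −0.82 missed the threshold (SE 0.49, edgeR adjusted p = 0.151). In lung, where epithelial markers were plentiful, the part of epithelial Cgn in this level was not tested.

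F11r (ENSMUSG00000038235, chr1:171437535-171464603, plus strand), JAM-A, was at 499, 1038, 1299 and 524 CPM in lung and at 393, 437, 508, 500 and 455 CPM in heart, but at 75.9, 126, 57.1, 101 and 66.1 CPM in brain. Brain lay below both tissues in every library, by −3.34 against lung (SE 0.34, edgeR adjusted p = 1.02e-06) and −2.45 against heart (SE 0.32, edgeR adjusted p = 1.01e-05). Lung and heart overlapped. Their log2 difference of 0.88 (SE 0.32, edgeR adjusted p = 0.0263) stayed past the threshold in 10 of 14 fits without 1 library.

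Jam2 (ENSMUSG00000053062, chr16:84774123-84825928, plus strand), JAM-B, was highest in heart, with 563, 664, 836, 940 and 773 CPM, against 200.2, 256, 112.5, 151 and 142 CPM in brain and 36.5, 36.0, 48.8 and 124 CPM in lung. Heart did not overlap with either tissue. The log2 difference was −2.26 for brain against heart (SE 0.34, edgeR adjusted p = 4.08e-05), −3.75 for lung against heart (SE 0.40, edgeR adjusted p = 3e-06) and 1.49 for brain against lung (SE 0.35, edgeR adjusted p = 0.00191), where lung replicate 4 lay above the lowest brain library.

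Per kilobase of exon, Cldn5 was the most abundant of the 9 genes in each tissue, at mean levels of 618 CPM per kb in brain, 3061 in lung and 234 in heart. It was followed in brain by Lsr at 94.1, Tjp1 at 32.3, F11r at 32.0, Jam2 at 28.5 and Ocln at 24.2 CPM per kb. In heart F11r at 172 and Jam2 at 125 CPM per kb came next, and in lung F11r at 315 CPM per kb. Cgn stood last in each tissue except lung, where Marveld2 did, at 0.722 against 0.976 CPM per kb.

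The upstream sequences of 2 genes are shown, F11r because it passed the threshold after LPS at the most times and tissues together (5), and Cldn5 because it passed in both directions in brain. They were read from RefSeq for GRCm38.p6, 5′ to 3′, as the 250 bases before the start site on the plus strand of each gene, with F11r printed only up to the base before its first exon in GENCODE M21. They span chr16:18776597-18776846 for Cldn5 and chr1:171437311-171437534 for F11r. Capitals mark motif letters found on either strand.
Cldn5: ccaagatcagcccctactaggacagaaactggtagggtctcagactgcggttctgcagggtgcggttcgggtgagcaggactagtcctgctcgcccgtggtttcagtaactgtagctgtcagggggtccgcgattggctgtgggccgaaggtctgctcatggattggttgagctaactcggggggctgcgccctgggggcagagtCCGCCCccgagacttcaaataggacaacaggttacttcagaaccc
F11r: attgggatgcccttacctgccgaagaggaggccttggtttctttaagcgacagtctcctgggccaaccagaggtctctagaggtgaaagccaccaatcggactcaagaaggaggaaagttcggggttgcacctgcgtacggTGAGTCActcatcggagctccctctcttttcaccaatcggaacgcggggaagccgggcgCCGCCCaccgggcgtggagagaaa
The motifs searched were those of AP-1 (TGANTCA), STAT (TTCNNNGAA), GC box (GGGCGG), ETS (CCGGAA) and FOX (TGTTTAC) and the NF-kB motif, none of them overlapping another here. In the Cldn5 window the search found a GC box, at −45 to −40 from the start site. In that of F11r it found an AP-1 motif at −109 to −103 and a GC box at −50 to −45. Of 32851 RefSeq promoter windows of the same length, 6.7% held the AP-1 motif, 7.0% the STAT motif, 3.9% the NF-kB motif, 32.7% the GC box, 12.0% the ETS motif and 3.2% the FOX motif. Among the 8 tight junction genes with a window in the table, Lsr was the other with an AP-1 motif, at −65 to −59. Such matches describe the letters only.

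After LPS the genes did not move as a group. Over the 5 times, 7 of 45 gene and time combinations passed the threshold in brain ECs, 0 of 45 in lung ECs and 5 of 40 in heart ECs, where Cgn was too low to be tested. Of all genes tested, the share called at a time was 0 to 14.2% in brain, 0.0117% to 4.83% in lung and 0 to 42.8% in heart. F11r rose in both brain and heart. The median log2 change of the genes tested lay between −0.36 and 0.41 in brain, −0.56 and 0.34 in lung and −0.23 and 0.40 in heart over the 5 times, beside medians of all genes between −0.04 and 0.09, −0.42 and 0.00, and −0.05 and 0.00. Cldn5 and Lsr fell in brain at 6 hr, Cldn5 was above its 0 hr level in brain at 72 hr, and Ocln fell in brain at 24 hr and in heart at 6 hr, where Tjp1 and Jam2 fell as well. No combination passed at 168 hr in any tissue.

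**Figure D3:**
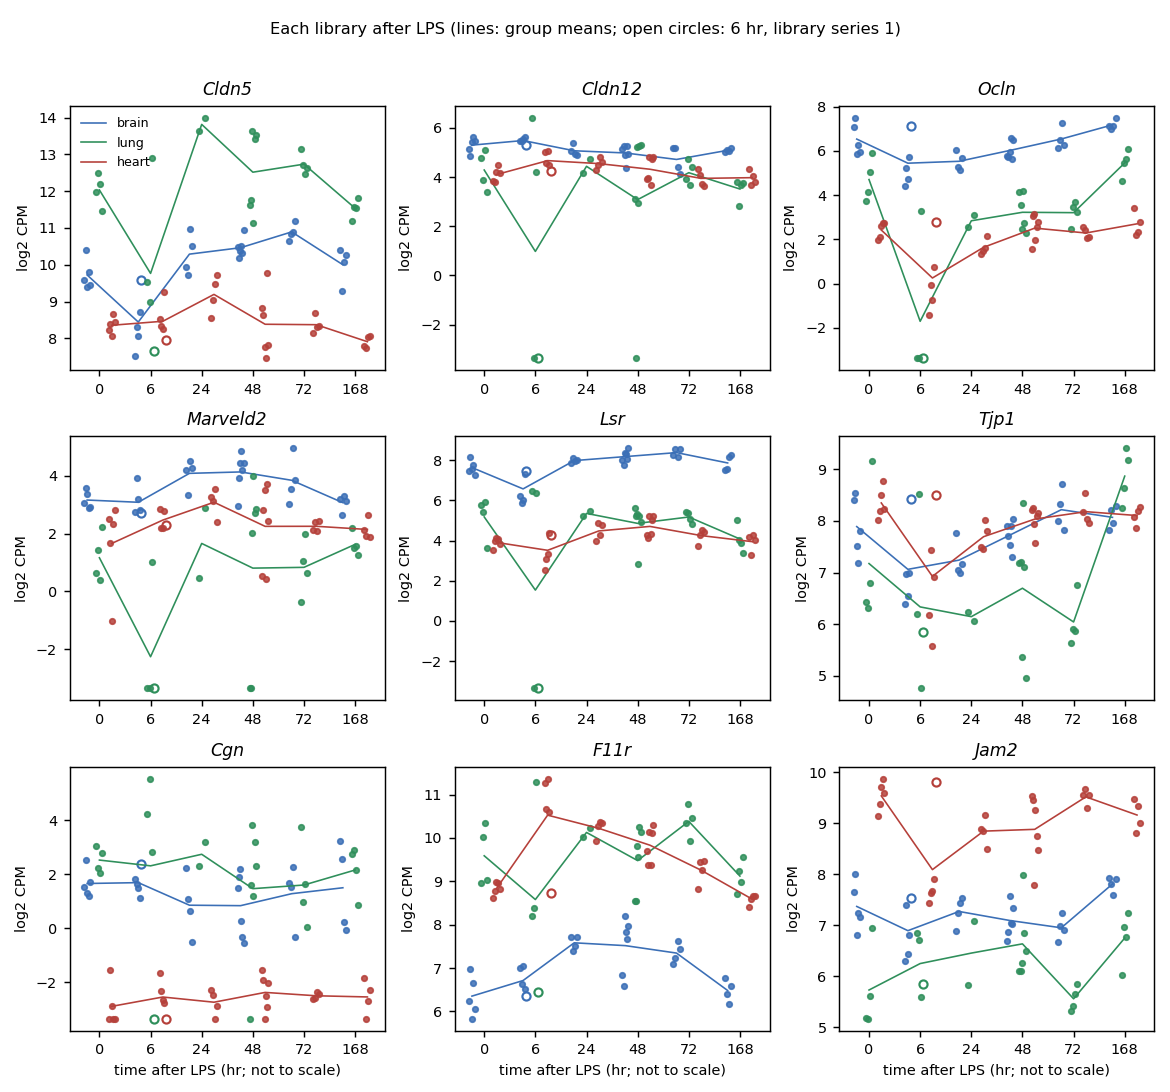
Level of each gene in log2 CPM (vertical axis) in every library at 0, 6, 24, 48, 72 and 168 hr after LPS (horizontal axis, not to scale) in brain (blue), lung (green) and heart (red), with lines through the group means and open circles for the 6 hr libraries of library series 1. In heart, the open circle lies with the 0 hr libraries for F11r (422 CPM), Jam2 (896 CPM), Ocln (6.76 CPM) and Tjp1 (364 CPM), and the filled 6 hr points lie apart from it.

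In brain ECs at 6 hr, 2 of the 9 genes passed, both lower, where 6.44% of all genes tested were called. Cldn5 was at 185, 318, 270 and 420 CPM in replicates 1 to 4, below all 5 brain libraries at 0 hr, and at 770 CPM in replicate 6, among the 0 hr libraries. The log2 change of Cldn5 was −1.15 (SE 0.26, edgeR adjusted p = 0.00645) with replicate 6 and −1.46 (edgeR adjusted p = 0.000306) without it. Lsr was at 74.4, 58.6, 65.0 and 158 CPM in replicates 1 to 4 and at 177 CPM in replicate 6, against 153 to 286 CPM at 0 hr. Its log2 change was −0.95 (SE 0.25, edgeR adjusted p = 0.018), and −1.20 (edgeR adjusted p = 0.0019) without replicate 6. Scaled to the 20 pan-endothelial genes, the change was −0.79 for Cldn5 (edgeR adjusted p = 0.0515) and −0.56 for Lsr (edgeR adjusted p = 0.179), while F11r then passed at 0.82 (edgeR adjusted p = 0.0223). Those 20 genes moved in both directions in brain from 0 to 6 hr, with mean levels of 227 and 397 CPM for Cdh5 and 222 and 57.3 CPM for Tek.

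Without replicate 6, 5 of the 9 genes passed at 6 hr in brain, where 14.3% of all genes then did. Ocln was at 21.3, 37.0, 26.6 and 52.6 CPM in replicates 1 to 4, all below the 0 hr range of 58.5 to 179 CPM, and at 138 CPM in replicate 6. This gave a log2 change of −0.81 (SE 0.27, edgeR adjusted p = 0.0801) with that library and −1.16 (edgeR adjusted p = 0.00442) without it. Tjp1 showed the same division, with 83.4, 125, 93.0 and 127 CPM in replicates 1 to 4, 345 CPM in replicate 6 and 145 to 373 CPM at 0 hr. Its log2 change was −0.66 (edgeR adjusted p = 0.127) with replicate 6 and −1.02 (edgeR adjusted p = 0.00433) without it. F11r was at 127, 99.1, 133 and 92.0 CPM in replicates 1 to 4 and at 82.0 CPM in replicate 6, with changes of 0.44 (edgeR adjusted p = 0.322) and 0.65 (edgeR adjusted p = 0.0416). Jam2 missed the threshold either way, at −0.36 (edgeR adjusted p = 0.383) and −0.42 (edgeR adjusted p = 0.268), and so did Cldn12, Cgn and Marveld2.

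At 24 hr in brain ECs, F11r rose and Ocln was lower, where 11.2% of all genes tested were called. F11r was at 210, 168, 182 and 211 CPM, above every 0 hr library, and its log2 change was 1.05 (SE 0.25, edgeR adjusted p = 0.0088). Ocln was at 65.7, 38.1, 34.8 and 51.4 CPM, a log2 change of −1.14 (SE 0.31, edgeR adjusted p = 0.0201). Cldn5 was at 986, 850, 2013 and 1454 CPM by then, with a log2 change of 0.26 (SE 0.30, edgeR adjusted p = 0.62), and Lsr at 231 to 279 CPM.

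At 48 hr F11r was the gene of the 9 past the threshold in brain ECs by TMM scaling, where 14.2% of all genes were. It was at 114.5, 96.7, 294, 229, 202 and 250 CPM, with a log2 change of 1.11 (SE 0.23, edgeR adjusted p = 0.00313). Within library series 1 the mean rose by 1.41 on the log2 scale and within series 2 by 0.54. Marveld2 was at 7.59 to 29.1 CPM, with a change of 0.87 (SE 0.30, edgeR adjusted p = 0.0536). Scaled to the pan-endothelial genes, Ocln, at −0.89 (edgeR adjusted p = 0.0223), and Jam2, at −0.67 (edgeR adjusted p = 0.0105), passed as well as F11r.

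At 72 hr Cldn5 and F11r were above 0 hr in brain ECs, where 3.53% of all genes were called. Cldn5 was at 1601, 1827, 1910 and 2344 CPM, above every 0 hr library, with a log2 change of 1.07 (SE 0.27, edgeR adjusted p = 0.0251), and its mean rose by 0.91 within library series 1 and by 1.19 within series 2. F11r was at 137, 150, 197 and 173 CPM, also without overlap, with a log2 change of 0.95 (SE 0.24, edgeR adjusted p = 0.0211). Lsr was at 303, 375, 290 and 379 CPM, again above every 0 hr library, but its change of 0.70 missed the threshold (SE 0.26, edgeR adjusted p = 0.165). Scaled to the pan-endothelial genes, which summed to 2853 to 5124 CPM at 72 hr, the changes were 0.60 for Cldn5 (edgeR adjusted p = 0.103) and 0.49 for F11r (edgeR adjusted p = 0.126). The genes past the threshold at 72 hr were then Jam2, at −0.91 (edgeR adjusted p = 0.00591), and Cldn12, at −1.02 (edgeR adjusted p = 0.0105). At 168 hr the called share of all genes in brain was 0, with 828 genes at an unadjusted p under 0.05 in edgeR, and the 9 log2 changes lay between −0.52 (Marveld2) and 0.68 (Cgn).

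In heart ECs at 6 hr, 4 of the 8 genes tested passed, where 42.8% of all genes tested were called. F11r was at 2472, 1635, 2646 and 1547 CPM in replicates 1 to 4, above all 0 hr libraries (393 to 508 CPM), and at 422 CPM in replicate 5. F11r changed by 1.85 on the log2 scale (SE 0.30, edgeR adjusted p = 9.7e-05), and 2.20 (edgeR adjusted p = 6.6e-09) without replicate 5. Jam2 moved the other way, with 174, 200, 204 and 239 CPM in replicates 1 to 4, below the 563 to 940 CPM of 0 hr, and 896 CPM in replicate 5. Its log2 change was −1.15 (SE 0.37, edgeR adjusted p = 0.0166), and −2.04 (edgeR adjusted p = 2.39e-07) without replicate 5. The 2 JAM genes thus changed in opposite directions in the same heart libraries.

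Ocln in heart was at 0.2763, 0.8503, 0.4931 and 1.594 CPM in replicates 1 to 4 at 6 hr, from 5 to 34 counts, and at 6.76 CPM in replicate 5, against 3.77 to 6.62 CPM at 0 hr. Ocln changed by −1.62 on the log2 scale (SE 0.53, edgeR adjusted p = 0.0179), and −2.80 (edgeR adjusted p = 5.14e-06) without replicate 5. Tjp1 was at 72.8, 174, 47.5 and 121 CPM in replicates 1 to 4 and at 364 CPM in replicate 5, against 261 to 439 CPM. The fitted log2 change was −1.10 (SE 0.33, edgeR adjusted p = 0.0121), and −1.81 (edgeR adjusted p = 1.7e-06) without replicate 5. Cldn12 was at 32.5, 23.8, 32.9 and 22.2 CPM in replicates 1 to 4 and at 18.7 CPM in replicate 5, with a change of 0.56 (edgeR adjusted p = 0.0577) that became 0.64 (edgeR adjusted p = 0.0299) without it. Cldn5 (log2 change 0.06, edgeR adjusted p = 0.883), Lsr and Marveld2 missed the threshold in both fits. The pan-endothelial genes summed to 8035 to 8673 CPM in replicates 1 to 4, against 14330 to 17010 CPM at 0 hr and 15280 CPM in replicate 5, and their part in the lower levels was not tested. Scaled to those genes, the change was −0.66 for Jam2 (edgeR adjusted p = 0.0511) and −0.57 for Tjp1 (edgeR adjusted p = 0.082), whereas F11r and Ocln still passed and Cldn12 was called at 1.28 (edgeR adjusted p = 0.00192). The pan-endothelial genes did not move together. From 0 to 6 hr the mean of Rasip1 rose from 468 to 2329 CPM and that of Robo4 from 466 to 990 CPM. The others were lower, such as Tek (620 to 216 CPM) and Myct1 (414 to 88.0 CPM). This scaling is thus not a plain measure of EC content.

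At 24 hr F11r was the gene of the 8 past the threshold in heart ECs, where 16.2% of all genes were. It was at 970, 1233, 1315 and 1297 CPM, above every 0 hr library, with a log2 change of 1.27 (SE 0.32, edgeR adjusted p = 0.0126), and its mean rose by 1.23 within library series 1 and by 1.34 within series 2. Tjp1 was at 179.5, 176, 259 and 224 CPM, below every 0 hr library, with a change of −0.78 that missed the threshold (SE 0.39, edgeR adjusted p = 0.15). At 48 hr all 6 heart libraries, at 664 to 1261 CPM, lay above the 0 hr libraries for F11r, with a change of 0.97 (SE 0.29, edgeR adjusted p = 0.0554), and the gene passed without the 6 hr library of series 1 in the fit (edgeR adjusted p = 0.00289). Of all genes 4.19% were called at 48 hr, 0.275% at 72 hr and 0 at 168 hr, where 680 were at an unadjusted p under 0.05. F11r was back at 341 to 408 CPM at 168 hr.

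In lung ECs none of the 9 genes passed the threshold in edgeR at any time, whereas the called share of all genes tested was 4.83% (6 hr), 0.375% (24 hr), 0.598% (48 hr), 0.193% (72 hr) and 0.0117% (168 hr). At an unadjusted p under 0.05, 2 of the 45 combinations passed, Ocln at 6 hr and at 48 hr, where 3960, 1022, 1674, 1225 and 605 of 17058 genes did at the 5 times. Ocln was at 0, 0, 9.49 and 0 CPM at 6 hr, below every 0 hr library, and replicate 3, the deep library, held all 302 counts. Its log2 change was −2.94 (SE 0.91, edgeR adjusted p = 0.0539), and −2.89 (edgeR adjusted p = 0.0831) without replicate 4. The fits that took the call past the threshold are given with the processing alternatives. The gene stayed low in level at 24 hr (5.81 and 8.57 CPM) and 72 hr (5.45 to 12.7 CPM), without overlap with 0 hr, and was at 24.8, 43.9, 49.8 and 67.4 CPM at 168 hr. Neither change passed, at −1.96 (edgeR adjusted p = 0.909) and −1.53 (edgeR adjusted p = 0.716).

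Cldn5 in lung was at 742, 505 and 202 CPM in replicates 1, 2 and 4 at 6 hr, the last of these from 7 counts, but at 7590 CPM in replicate 3. TMM scaling raised the values of replicates 1 to 4 by 1.60, 3.99, 1.26 and 8.22 times, and without it Cldn5 was at 465, 126, 6021 and 24.6 CPM. Its log2 change of −1.14 (SE 0.89, edgeR adjusted p = 0.453) covers this spread, with a 95% interval of −2.90 to 0.61, and was −0.56 (edgeR adjusted p = 0.729) without replicate 4. Without replicate 3 it was −3.54, and Cldn5, F11r (−2.17) and Ocln then passed the threshold. The 10 leukocyte genes summed to 6910, 2040, 3520 and 0 CPM in replicates 1 to 4, against 299 to 598 CPM at 0 hr. The lung epithelial genes summed to 780 to 30210 CPM and the pan-endothelial genes to 2025 to 14290 CPM over the 4 libraries, so that their makeup differed widely, and its part in these values was not tested. At 24 hr both lung libraries, at 12760 and 16240 CPM, were above the 2797 to 5814 CPM of 0 hr for Cldn5, a log2 change of 1.70 (SE 1.08, edgeR adjusted p = 1). F11r was at 2499 CPM in replicate 3 and at 295, 336 and 86.7 CPM in the other 6 hr lung libraries, the last of these from 3 counts and 10.6 CPM without TMM scaling.

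**Figure D4:**
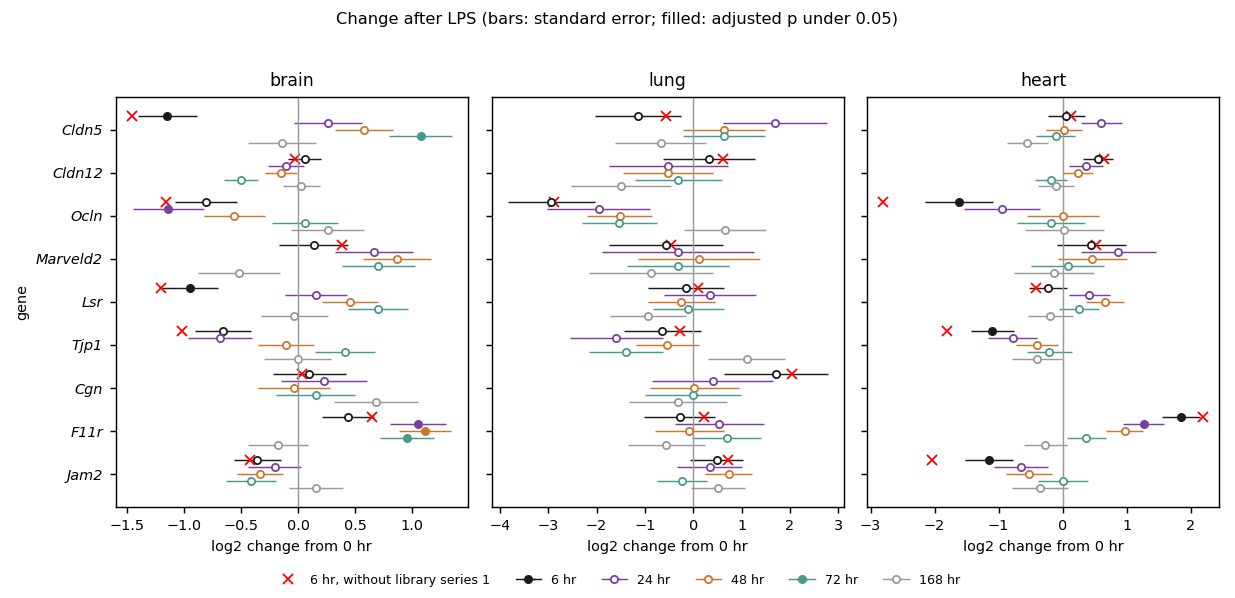
Log2 change from 0 hr (horizontal axis, with its own range in each panel) of the 9 genes (vertical axis) in brain, lung and heart at 6 to 168 hr after LPS. Circles are fitted changes with their standard error, filled where the edgeR adjusted p was under 0.05, and red crosses give the 6 hr change without the libraries of series 1. F11r lies to the right in brain at 24 to 72 hr and in heart at 6 and 24 hr, no circle is filled in lung, and the red crosses for Ocln, Tjp1 and Jam2 in heart lie further left than the circles.

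With each of the 28 libraries of a tissue left out in turn, the calls of Cldn5 at 6 hr and F11r at 48 hr in brain and of F11r and Tjp1 at 6 hr in heart were kept in all 28 fits. Lsr at 6 hr in brain was lost without 0 hr replicates 2 or 4 or 6 hr replicates 1, 2 or 3, and Ocln at 24 hr without 0 hr replicate 2 or 24 hr replicates 1 or 4. F11r at 24 hr was lost without replicate 2 of that time in brain, and without replicate 2 in heart. At 72 hr in brain, Cldn5 and F11r were both lost without 0 hr replicates 1, 3 or 5 or 72 hr replicate 2, Cldn5 also without 72 hr replicate 1 and F11r without 72 hr replicate 3. Ocln and Jam2 at 6 hr in heart were lost without replicates 1, 2 or 3 of that time.

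The difference in response between tissues was tested as an interaction at 6, 24 and 48 hr. The comparisons share their 0 hr libraries. Libraries of different tissues also share mice, by codes in the count file names, and their deviations from the mean of group and library series had a median correlation of 0.11 (brain and lung), 0.28 (brain and heart) and 0.23 (lung and heart) within a mouse, against −0.01, −0.05 and −0.03 between mice. The fit does not model this. Between lung and heart at 6 hr, 2 of the 9 genes differed, where 13.9% of all genes tested did. The change of F11r in lung minus that in heart was −1.98 on the log2 scale (SE 0.69, edgeR adjusted p = 0.0446), and that of Jam2 was 1.80 (SE 0.61, edgeR adjusted p = 0.0384). The median of all genes was −0.46 in this contrast. Without the 6 hr libraries of series 1 these differences were −1.91 (edgeR adjusted p = 0.0283) and 2.36 (edgeR adjusted p = 0.00352). With the mouse code as a block in place of library series, a fit chosen after seeing the data, they were −2.53 (edgeR adjusted p = 0.0165) and 2.37 (edgeR adjusted p = 0.0112), and the counts of calls stayed at 0, 0 and 2. Leaving out 1 library kept F11r past the threshold in 17 of 30 fits and Jam2 in 18 of 30. Between brain and lung 0 of 27 combinations passed, where 8.54%, 2.79% and 2.22% of all genes did at 6, 24 and 48 hr. That count depended on lung replicate 3 at 6 hr. Without it, Cldn5 passed at 6 hr, at 2.11 (edgeR adjusted p = 0.00806). Between brain and heart 0 of 27 combinations passed as well, where 0.309%, 0.206% and 0.309% of all genes did. At such low shares this count says little about the 9 genes. Both comparisons with heart include Cgn, which was too low to be tested in heart alone. Between lung and heart none of the 9 genes passed at 24 or 48 hr, where 1.09% and 0.594% of all genes did. At an unadjusted p under 0.05 in edgeR, F11r and Jam2 passed between brain and lung at 48 hr, where 2785 of 21366 genes did, and F11r between brain and heart at 6 hr, where 2016 did. Jam2 also did so between lung and heart at 24 hr (1.49) and at 48 hr (1.51), where 2207 and 2320 genes did.

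Of 50 other genes of tight junctions, listed with the 9, 42 were tested at 0 hr. Between brain and lung 16 were higher in brain and 16 lower, where 64.3% of all genes differed, with a median log2 difference of 0.44, close to the 0.42 of all genes. Cldn11, the claudin of myelin, was at a mean of 260 CPM in brain and 1.62 CPM in lung (log2 difference 7.59), and Ildr2, an angulin, at 220 and 2.08 CPM (6.55). Magi2, a junctional scaffold, differed by 5.87. Cldn18, known from lung alveolar epithelium, was at 151 CPM in lung and at 0 to 2 counts per library in brain, so that no fold is given. Cldn3 (−6.35) and Cldn15 (−5.58) were lower in brain as well. Between brain and heart, where 54.8% of all genes differed, 16 were higher in brain, among them Ildr2 (7.26), Cldn11 (6.81) and Cldn10, at 20.8 CPM in brain and 0 to 2 counts per library in heart, and 12 lower, among them Afdn, afadin (−1.93), Cldn15 at 0.215 CPM in brain and 35.3 CPM in heart (−7.35) and Jam3 at 22.2 and 106 CPM (−2.30). Between lung and heart, where 61.1% of all genes differed, 19 were higher in lung and 9 lower, among them Jam3 at 5.76 CPM in lung and 106 CPM in heart (−4.21), Amot (−3.61) and Magi1 (−1.79). Those higher in lung included Cldn18, the polarity gene Crb3 at 13.4 CPM and Cldn3 at 15.1 CPM. In heart they had 0 to 15, 0 to 2 and 0 to 5 counts per library, with all 15 of Cldn18 in replicate 2, and no fold is given.

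After LPS at 6 hr, 12 of the 31 other genes tested in heart changed, 1 higher and 11 lower, where 42.8% of all genes were called, with a median log2 change of −0.31 (all genes −0.05). Without the 6 hr library of series 1, 18 of the 31 changed, 1 higher and 17 lower, where 58.4% of all genes were called. With that library in the fit, Amot, which binds the polarity proteins of the junction, fell from 31.8 to 8.52 CPM (log2 change −2.03, edgeR adjusted p = 0.00178). Marveld1, a MARVEL domain protein, fell from 81.2 to 30.8 CPM (−1.49, edgeR adjusted p = 0.00196). Ybx3, the ZO-1 associated transcription factor, rose from 155 to 283 CPM (0.78, edgeR adjusted p = 0.00494). Without the library the changes were −3.4 for Amot (edgeR adjusted p = 1.26e-11), −2.24 for Marveld1 (edgeR adjusted p = 7.68e-08) and 0.99 for Ybx3 (edgeR adjusted p = 5.22e-05). At 24 hr, where 16.2% of all genes were called, 2 of the 31 rose in heart, Ybx3 again (0.87, edgeR adjusted p = 0.0138) and Pard3, and 6 fell, among them Cgnl1, paracingulin (−1.02, edgeR adjusted p = 0.0402). The polarity gene Pard3 rose from 16.4 to 116 CPM (2.14, edgeR adjusted p = 0.00772), while Jam3 fell from 106 to 33.2 CPM (−1.41, edgeR adjusted p = 0.00667) and Afdn from 624 to 310 CPM (−1.03, edgeR adjusted p = 0.0392). In brain 5 of 45 changed at 6 hr, 4 of them lower (6.44% of all genes called). Among these were Marveld1 at −1.29 (edgeR adjusted p = 0.00454), Igsf5 at −1.55 (edgeR adjusted p = 0.0166) and the junctional GTPase gene Rab13 at −0.90 (edgeR adjusted p = 0.0255). Without the library of series 1, 8 of 45 changed, 6 of them lower (14.3%). Marveld1 was then at −1.7 (edgeR adjusted p = 5.27e-05), Igsf5 at −2.45 (edgeR adjusted p = 9.37e-06) and Rab13 at −1.14 (edgeR adjusted p = 0.00273). At 24 hr Cldn2, known from choroid plexus epithelium, rose from 3.40 to 17.7 CPM in brain (1.95, edgeR adjusted p = 0.0408), where 11.2% of all genes were called. In lung 1 of 43 passed at 6 hr (4.83% of all genes called), Marveld1, at −2.80 (edgeR adjusted p = 0.0406), and 0 of 44 without replicate 4, where Marveld1 was at −2.56 (edgeR adjusted p = 0.0838) in edgeR.

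The genes whose mean log2 CPM over the 18 tissue and time groups was most like that of 4 members were found among 8967 genes. For Cldn5 they were Adamts15, Pomp and Renbp, with Pearson's r of 0.951, 0.936 and 0.920. For Ocln they were Col1a2 (0.963), Rnd2 (0.953) and Myl9 (0.952), for Lsr Slc31a1 (0.96), Ddr1 (0.955) and Prom1 (0.951), and for Tjp1 Gm9800 (0.936), Selenop (0.933) and Fkbp7 (0.929). These values describe group means that share tissue, library scaling and makeup.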

How the data were processed

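Ribosome-bound RNA of RiboTagEC mice (brain, lung, heart) was sequenced after anti-HA pulldown. Per the labels, the authors aligned reads with STAR 2.4.2 to mm10 and counted them per gene with HTSeq 0.6.1, and the deposited values are raw counts per gene and run. The annotation release and strand setting are not given in the sources used here. Runs of a library were summed, and 18 libraries under 3% of reads on genes were left out. The 80 others held 284457 to 43417945 counts on genes. The 95% intervals are the log2 change plus and minus 1.96 times its SE in the edgeR fit, which includes the spread between libraries.

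Tests used edgeR 4.0.16 in R 4.3.3 (filterByExpr, TMM, quasi-likelihood F test, library series as covariate), with Benjamini-Hochberg adjustment over all genes tested and a threshold of 0.05. Each pair of tissues at 0 hr came from a fit of the 0 hr libraries, LPS changes from a fit per tissue over all times, and differences in response from a fit over tissues. Libraries of different tissues can come from the same mouse, by codes in the count file names, and p-values measure the spread between libraries. Levels are CPM, also per kilobase of GENCODE M21 union exons. Upstream sequences came from RefSeq (GRCm38.p6), found for 8 of the 9 genes.

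Genes and lists were chosen with earlier results of these data known. All 9 genes are named throughout. Of 50 other tight junction genes, up to 3 with the largest change each way past the threshold were named for each pair of tissues at 0 hr and each tissue at 6 and 24 hr, if their log2 CPM averaged 1 or more. For Cldn5, Ocln, Tjp1 and Lsr the 3 genes most alike in pattern were named. Some genes that meet these rules are not reported here. On simulated data, 93% of genes with a log2 change of 2 were recovered for brain against lung at 0 hr (17678 genes), 94% for brain at 6 hr (18672 genes), 73% for lung (15764 genes), 97% for heart (15690 genes) and 48% for the brain against lung difference in response (19343 genes). With a log2 change of 1, 27%, 28%, 18%, 34% and 9% were recovered, in the same order. Of the calls, 4%, 7.58%, 5.21%, 7.09% and 3.39% were false. The simulated counts had the same fixed dispersion in every tissue and no effect of library series. The wider spread of the real lung libraries was therefore not part of them. Nor were the 6 hr libraries of series 1 that stood apart. These shares do not give the power in the real data of any tissue.

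Alternatives were DESeq2 1.42.0, limma-voom (limma 3.58.1), RLE scaling, CPM without TMM, scaling to 20 pan-endothelial genes, no low-count filter, a log2 change of at least 1, a prior count of 0.5, other sets of libraries, other covariates, other samples in the fit and each library left out in turn. Leaving out the 6 hr libraries of library series 1, and the mouse code as a block for differences in response, were chosen after seeing the data.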

Additional observations from a re-analysis of the deposited data

Results flagged for a closer look

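In 9 of 153 sets of a gene and a group of 4 to 10 libraries, a library lay far from the others by Dixon's test, and chance gives about 1 in 20. Tjp1 was at 9.15 log2 CPM in lung replicate 4 at 0 hr. Jam2 was at 9.81 log2 CPM in heart replicate 5 at 6 hr, a library of series 1. In lung replicate 3 at 6 hr, the deep library, Ocln was at 3.26 and Marveld2 at 1.01 log2 CPM, while both had 0 counts in the other 3 lung libraries.

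In lung at 48 hr, Cldn12 in replicate 2 and Cgn in replicate 1 were at −3.35 log2 CPM, with 0 counts each, and Lsr was at 2.84 log2 CPM in replicate 4 (7.05 CPM against 30.3 to 49.1). Cldn12 was at 2.83 log2 CPM in lung replicate 2 at 168 hr (7.02 CPM against 12.6 to 14.0). Cgn was at −1.54 log2 CPM in heart replicate 2 at 0 hr, from 3 counts. That library also held 59.6 CPM of lung epithelial markers, against 1.23 to 2.29 CPM in the other 0 hr heart libraries, and the part of these cells was not tested.

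The responses of F11r and Jam2 at 6 hr differed between lung and heart in the interaction test, by −1.98 and 1.80 on the log2 scale. Of all genes tested, 13.9% were called in this contrast. Neither gene passed without library series as a covariate, nor with the libraries under 3% of reads on genes kept.

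In the libraries left out for their low share of reads on genes, the summed level of the 9 genes reached 125.5 CPM in brain (0 hr library 58.4 CPM), 98.1 CPM in heart (0 hr library 61.9 CPM) and 208.8 CPM in lung (0 hr library 1.32 CPM, from 1 count). The lowest of the left-out LPS libraries were at 38.5 CPM in brain, 39.1 CPM in heart and 0 CPM in lung, each below the 0 hr library. The sums came from 25 to 80 counts in brain, 23 to 55 in heart and 0 to 179 in lung. There was 1 left-out 0 hr library per tissue, and no test was made.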

How the results depend on the processing

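Without library series as a covariate, the calls after LPS were 3 in brain (7 with it), 1 in lung (0), 8 in heart (5) and 0 in the lung against heart difference in response (2). Scaling to 20 pan-endothelial genes gave 3 calls in lung, all at 6 hr, and 4 in the brain against lung difference. In lung these were Ocln at −2.45 and, in the other direction, Cgn at 4.02 and Jam2 at 3.03. That scaling also changed the sign of the fitted 0 hr difference of Cldn5 (0.15) and Cgn (1.75) between brain and lung. Between brain and heart it did so for Tjp1 (1.94) and Jam2 (0.24). None of these differences passed the threshold under both scalings. In lung, limma-voom, RLE scaling, no low-count filter and the replicate block gave 1 call each, Ocln at 6 hr. The lung against heart difference had 1 call with limma-voom, 1 with at least 1000000 counts per library, and 0 with the libraries under 3% kept. Without the 6 hr libraries of series 1, brain had 12 calls. The cause of these changes was not tested.

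Leaving out 1 library gave 6 to 7, 7 to 7 and 5 to 8 calls at 0 hr for brain against lung, brain against heart and lung against heart, 5 to 12 after LPS in brain, 0 to 3 in lung and 3 to 7 in heart, and 0 to 3, 0 to 0 and 0 to 4 for the differences in response in the same order of tissues. Without lung replicate 3 at 6 hr, the brain minus lung response of Cldn5 at 6 hr was 2.11 and passed the threshold (edgeR adjusted p = 0.00806). With all libraries it was −0.22 and did not (edgeR adjusted p = 0.961). Its range was −0.66 to 2.11 over the libraries left out. Most libraries of 24 and 48 hr were not left out in turn for the differences in response. The set without library series 3 is the set used.

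Replicate numbers were not taken to pair the libraries. The deviations of same-numbered libraries correlated over 0.1 in 20 of 36 pairs in brain, 16 of 36 in heart and 5 of 26 in lung (medians 0.12, 0.06 and 0.02). For other-numbered pairs it was 54 of 178, 73 of 178 and 35 of 114 (medians −0.04, 0.0 and −0.01). In brain same-numbered libraries were thus somewhat more alike, so that a shared deviation is not excluded there. With the replicate block, calls were 7, 7 and 6 at 0 hr, 6, 1 and 5 after LPS in brain, lung and heart, and 0, 0 and 2 for the differences in response. With the mouse code as a block, calls at 0 hr were 7, 7 and 7, and Tjp1 then differed for brain against lung (1.35) and lung against heart (−1.83). The shallowest library, of lung at 6 hr, had 284457 counts, and without it lung still had 0 calls.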
